A study of Mus musculus with 4 samples.

Results

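The pentose phosphate pathway branches off glycolysis at glucose 6-phosphate, and its transcripts are described here in mouse spermatogonia, the mitotic male germ cells of the testis. The set was defined by gene symbol, as the rows of the deposited normalized count table named G6pdx, H6pd, Pgls, Pgd, Rpia, Rpe, Tkt, Taldo1, Prps1 and Prps2, which are 10 of the 19991 genes in that table. All 10 passed the filter on low values and are among the 14108 genes tested. Spermatogonia of wild-type mice were grown in culture. The comparison set 2 libraries of differentiating spermatogonia (dSG), collected after 36 h with retinoic acid (RA), against 2 libraries of undifferentiated spermatogonia (SG). The sample characteristics give the solvent DMSO for SG, while the treatment protocol field of the labels names RA for every sample. The RA dose is 100 µM in the labels and 100 nM in the study's methods. All 4 cultures were kept in Stempro34 medium with the growth factors FGF, GDNF and EGF and with leukaemia inhibitory factor (ESGRO). The study's methods describe Matrigel-coated dishes for RA induction and mention feeder cells for the proteomics cultures. The substrate of the SG libraries is not stated, so the groups may differ in more than RA. The labels give the strain as C57BL/6, whereas the study's methods name pups of about postnatal day 5, of the DBA strain or of a DBA cross with a GFP strain, as the source of the cultures, so the strain of these libraries is uncertain. The cultures lacked the supporting cells of the testicular niche, no sorting step is described for the RNA-seq, and nothing in the labels ties the replicates to independent cultures, so p-values measure the spread between these libraries only.

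In textbook biochemistry the pathway has an oxidative and a non-oxidative branch. The oxidative branch turns glucose 6-phosphate into ribulose 5-phosphate and yields NADPH, the reducing agent used for lipid synthesis and for keeping glutathione reduced. The non-oxidative branch interconverts sugar phosphates, so that ribose 5-phosphate for nucleotides can be made from, or returned to, the intermediates of glycolysis. PRPP synthetases then activate ribose 5-phosphate to phosphoribosyl pyrophosphate (PRPP), the sugar donor of purine, pyrimidine and NAD synthesis. Proliferating cells, spermatogonia among them, draw on both products, and RA is the signal that commits spermatogonia to differentiation and later to meiosis.

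Upon RA-induced differentiation, Tkt, which encodes the transketolase of the non-oxidative branch, was the member that passed the test and fell, with 271 ± 23.4 normalized counts in dSG and 917 ± 67.6 in SG (SD, n = 2 each), a level 3.35-fold higher in SG. In the cytosolic and microsomal oxidative branch, G6pdx, Pgd and H6pd had both dSG libraries below both SG libraries, as did 32.7% of all genes tested. Their changes were -0.67 to -0.97 on the log2 scale, and none of them passed the adjusted threshold. Without SG replicate 1 the changes were -0.95 for G6pdx, -0.45 for Pgd and -0.52 for H6pd. Rpia, Rpe, Taldo1, Pgls, Prps1 and Prps2 had overlapping groups. The near relatives of Tkt, Tktl1 and Tktl2, had log2 fold changes of 0.47 and 0.34 that did not pass. Tktl1 lies on the X chromosome, where the median change of 554 genes tested was 0.46. It made up 72.0% and 76.2% of the family's level per length in dSG libraries against 46.1% and 59.0% in SG libraries.

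Values are normalized counts, that is reads per gene divided by the size factor of the library, and the test was limma on log2(normalized count + 4) with p-values adjusted over all 14108 genes tested (threshold 0.05). The libraries held 22307745 and 26921478 gene reads in dSG replicates 1 and 2, and 7484560 and 26953654 in SG replicates 1 and 2. SG replicate 1 was the shallowest library, and 18.3% of its reads came from Lars2, against 3.66% to 5.60% in the others. The log2 difference between replicates had an SD across genes of 0.20 in dSG and 0.81 in SG, and across genes the SG difference followed GC content (Spearman's rho 0.73, all genes from the same 2 libraries). The labels were checked with Kit, the receptor of differentiating spermatogonia (5825 and 5921 in dSG, 319 and 347 in SG), with Stra8, an RA target that precedes meiosis (12205 and 12236 in dSG, 134 and 37.8 in SG), and with Gfra1, the GDNF receptor of undifferentiated cells (1667 and 1629 in dSG, 4491 and 4414 in SG). Among the lists of 3 SG and 3 dSG markers, 2 SG markers (Etv5 and Gfra1) were lower and 2 dSG markers (Kit and Stra8) were higher at the threshold. Of 5 germ cell markers, led by Zbtb16, none passed. Of the somatic lists, the 10 fibroblast and feeder markers had 1 call (Thbs1, higher in dSG) and summed to 5191 and 5254 in dSG against 12710 and 8591 in SG, mostly from Fn1 and Col1a1, while Lum, Dcn, Col3a1, Postn and S100a4 were at 20.8 or less in every library. The 5 Sertoli markers had 1 call (Sox9, 53.0 and 55.7 in dSG, 460 and 246 in SG). They summed to 171 and 189 in dSG against 658 and 378 in SG, a difference mostly from Sox9. Amh was also lower (11.6 and 6.26 in dSG, 61.9 and 30.8 in SG). Groups overlapped for Wt1 (86.3 and 94.5 in dSG, 91.2 and 71.7 in SG), Gata4 (16.7 and 26.9 in dSG, 42.4 and 22.7 in SG) and Cldn11, at 6.29 or less. The 5 Leydig markers summed to 367 and 351 in dSG against 215 and 317 in SG, mostly from Star, with Cyp11a1, Hsd3b1 and Insl3 at 2.52 or less, and the 4 macrophage markers summed to 150 and 154 in dSG against 179 and 210 in SG, with no call in either list.

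The sequences that bear on the transketolase result are those by which reads of Tkt can be told from reads of its relatives. Tkt (ENSMUSG00000021957, GRCm38 chromosome 14, 30548359 to 30574720, plus strand) has a coding sequence of 1872 bases, and GENCODE M21 coding sequences of Tkt and Tktl1 were identical at 66.5% of 1741 aligned bases, with no identical run longer than 20 bases. Tkt and Tktl2 were identical at 67.0% of 1864 aligned bases, and again the longest identical run had 20 bases. No stretch of 100 bases of the longest Tkt transcript occurred exactly in a transcript of another gene. The first gap-free window of 90 coding bases is shown for the 3 genes, 5′ to 3′, from base 19 of Tkt, base 46 of Tktl1 and base 25 of Tktl2, with capitals for bases that differ from Tkt (31 in Tktl1, 35 in Tktl2).
Tkt: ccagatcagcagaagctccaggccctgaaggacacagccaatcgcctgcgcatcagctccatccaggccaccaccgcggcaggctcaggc
Tktl1: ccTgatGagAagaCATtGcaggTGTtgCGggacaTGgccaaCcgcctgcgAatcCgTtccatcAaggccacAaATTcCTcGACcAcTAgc
Tktl2: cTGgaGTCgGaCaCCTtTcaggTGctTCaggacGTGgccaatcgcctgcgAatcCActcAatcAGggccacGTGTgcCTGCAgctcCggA

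The promoters of Tkt and G6pdx are shown because these members had the closest SG replicates and the 2 smallest p-values of the 10. They are RefSeq promoters of GRCm38.p6, from 250 bases before to 50 bases after the start, and all 10 members had at least 1, with a second start for Pgd (11 promoters). Capitals mark matches on either strand to GGGCGG, the Sp1-type box, and to TGACNNNGC, the core of the antioxidant response element bound by NRF2, whose known targets include genes of this pathway. The Tkt promoter lies at chr14:30548881-30549180 on the plus strand and its capitals are 5 Sp1-type boxes, of which a pair overlaps by 1 base. The G6pdx promoter lies at chrX:74428831-74429130 on the minus strand, and its capitals are 1 Sp1-type box followed by 1 antioxidant response element core, read on the opposite strand.
Tkt promoter: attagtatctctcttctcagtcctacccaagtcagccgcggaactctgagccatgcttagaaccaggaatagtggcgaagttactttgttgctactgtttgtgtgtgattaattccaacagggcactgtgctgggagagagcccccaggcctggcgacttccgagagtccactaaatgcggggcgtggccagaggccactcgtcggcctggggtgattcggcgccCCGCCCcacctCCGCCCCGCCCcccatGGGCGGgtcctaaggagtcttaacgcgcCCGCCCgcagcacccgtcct
G6pdx promoter: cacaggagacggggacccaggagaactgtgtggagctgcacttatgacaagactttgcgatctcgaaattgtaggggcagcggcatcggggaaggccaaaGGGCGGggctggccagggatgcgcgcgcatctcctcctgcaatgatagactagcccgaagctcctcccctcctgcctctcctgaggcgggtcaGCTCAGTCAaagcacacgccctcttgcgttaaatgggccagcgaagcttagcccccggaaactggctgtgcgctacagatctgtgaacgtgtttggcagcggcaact

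The Sp1-type box was present in 35.6% of all 32817 RefSeq mouse promoters of this length, and 5 or more boxes in 2.71%. Among the members, Prps1 had 4 boxes, Rpe 2, and Pgls, Rpia, Taldo1 and the upstream Pgd start 1 each, while H6pd, Prps2 and the second Pgd start had none. The antioxidant response element core was present in 12.4% of all promoters and, beside G6pdx, at the second Pgd start. The E-box CACGTG, present in 7.15% of all promoters, was in none of the 11 windows. These counts describe letters in short windows and were not tested.

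The question put to the members was whether transcripts of each step differed between dSG and SG. Of the 10 members, 1 was lower in dSG at the adjusted threshold, where 4.91% of all genes tested were lower, and 0 were higher, where 1.16% of all genes were. Both dSG libraries lay below both SG libraries for 4 of 10 members, against 32.7% of all genes tested, and above them for 0 of 10, against 33.2%. At an unadjusted p under 0.05, 4 members were lower, against 16.3% of all genes, and none was higher, against 10.5%. The edgeR and DESeq2 fits of the recovered reads each called the same single member lower, where they called 6.00% and 10.4% of all genes lower, and 0 members higher. A correction of each library for GC content called 2 members, in a fit that called 21.4% of all genes. With a library left out, 0 members were called without dSG replicate 1 (3.43% of all genes) or dSG replicate 2 (3.32%), whereas 6 were called when SG replicate 1 was dropped (59.0%) and 10 when SG replicate 2 was (81.1%). The median log2 change of the members was -0.23, against 0.01 over all genes tested, and it was -0.12 without SG replicate 1. In a culture that can hold several cell types, fewer cells of a type and less RNA per cell cannot be told apart.

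**Figure D1:**
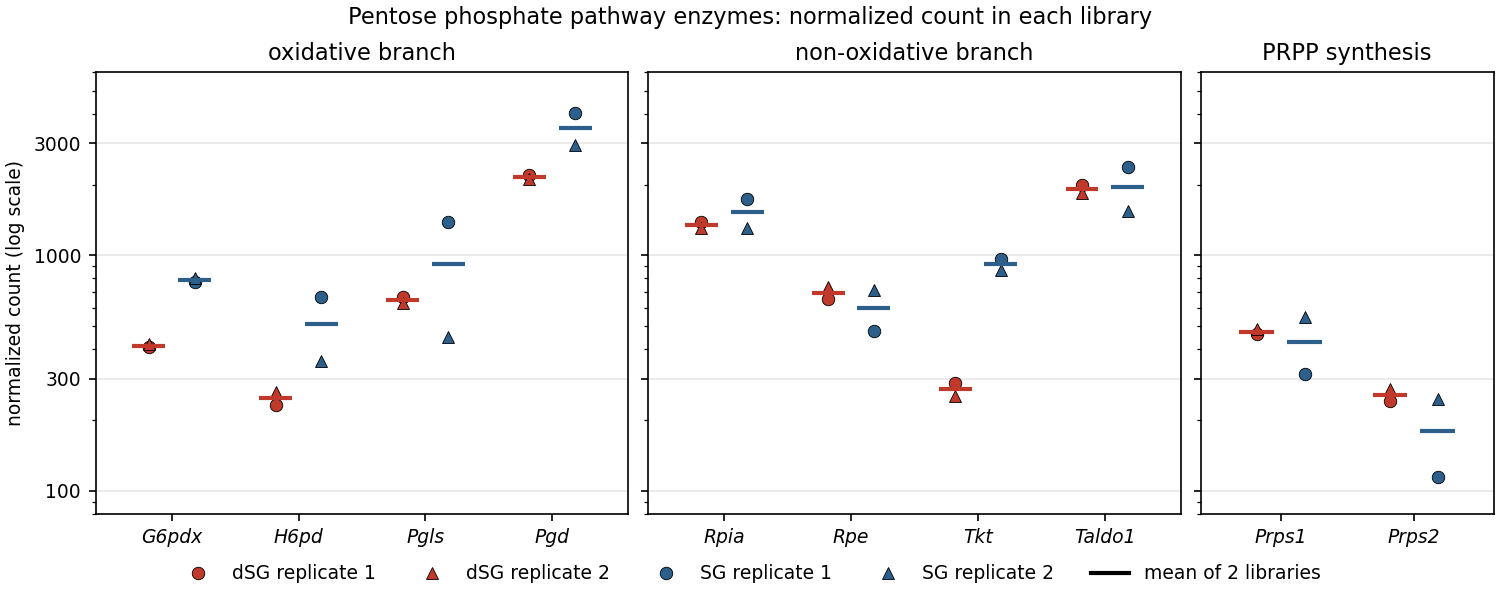
Normalized count (log axis) of each member in each library, with dSG in red on the left of each pair and SG in blue on the right, circles for replicate 1, triangles for replicate 2 and a bar for the mean of 2 libraries. Tkt, G6pdx, H6pd and Pgd have both dSG points below both SG points, and the 2 SG points lie farther apart than the 2 dSG points for 9 of the 10 genes.

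Tkt moves 2-carbon units between sugar phosphates with thiamine pyrophosphate as cofactor and is the step through which pentoses return to glycolysis. Its normalized counts were 287 and 254 in dSG, against 965 and 869 in SG. The groups did not overlap, and the replicates differed by 0.17 in dSG and 0.15 in SG on the log2 scale. The log2 fold change was -1.75 (n = 2 each, SE 0.20, 95% confidence interval -2.28 to -1.22, limma adjusted p = 0.0276). In reads these were 396 and 406 in dSG and 296 and 1381 in SG. Without dSG replicate 1 the change was -1.83 and without dSG replicate 2 it was -1.66, and Tkt was not called in either fit. There the spread came from the SG pair only, whose replicate difference had an SD across genes of 0.81. The lost call therefore says little about the dSG values of Tkt. In the other 14 alternatives that kept all libraries the change was -1.76 to -1.45 with adjusted p of 3.23e-07 to 0.0407, and edgeR and DESeq2 on recovered reads both called it. Sums of the fibroblast and Sertoli markers were also lower in dSG, the Sertoli sum mostly through Sox9, and their part in the Tkt difference was not tested. The fibroblast sum came mostly from Fn1 and Col1a1. Of the 5 fibroblast markers tested, 2 had both dSG libraries above both SG libraries (33.2% of all genes tested). Another 3 had them below (32.7%), and the 1 call was higher (1.16% of all genes).

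Taldo1, the transaldolase that acts beside transketolase by moving 3-carbon units, was at 1988 and 1851 in dSG, against 2369 and 1543 in SG. Both dSG values lay between the SG values. Its log2 fold change was 0.00 (SE 0.27, 95% confidence interval -0.71 to 0.72, adjusted p = 0.992). Per kilobase of its longest transcript it was the most abundant member in both groups, at 1409 ± 71.4 in dSG and 1436 ± 429 in SG (SD, n = 2 each). Tkt stood at 84.0 ± 7.27 in dSG and 285 ± 21 in SG on the same scale. Taldo1 (ENSMUSG00000025503) lies on chromosome 7, 141392199 to 141402968, plus strand.

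Rpia and Rpe sort ribulose 5-phosphate into its fates. Rpia isomerizes it to ribose 5-phosphate, and its normalized counts were 1385 and 1314 in dSG, against 1740 and 1312 in SG. SG replicate 2 was at the level of dSG replicate 2, and the log2 fold change was -0.16 (SE 0.22, 95% confidence interval -0.74 to 0.42, adjusted p = 0.634). Rpe epimerizes ribulose 5-phosphate to xylulose 5-phosphate, the 2-carbon donor of transketolase, and was at 653 and 738 in dSG, against 479 and 716 in SG. Here SG replicate 1 was the low library, and the log2 fold change was 0.24 (SE 0.27, 95% confidence interval -0.47 to 0.96, adjusted p = 0.567). Rpe, at 39.2% GC, was the member poorest in GC, and after a correction of each library for GC content its change was -0.58 (adjusted p = 0.101), so its direction depends on that choice. Rpe shares 20.5% of its longest transcript exactly with Kansl1l, which overlaps it on the other strand, so its reads are uncertain. Rpia lies on chromosome 6 (ENSMUSG00000053604, 70765720 to 70792232, minus strand) and Rpe on chromosome 1 (ENSMUSG00000026005, 66700831 to 66719805, plus strand).

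In the oxidative branch G6pdx, glucose-6-phosphate dehydrogenase, makes the first NADPH and is the committed step. It was at 408 and 420 in dSG, against 769 and 805 in SG. The groups did not overlap and both pairs of replicates were close. The means were 414 ± 8.70 in dSG and 787 ± 25.3 in SG (SD, n = 2 each), a log2 fold change of -0.92 (SE 0.18, 95% confidence interval -1.41 to -0.43). The adjusted p was 0.0654, above the threshold, and after the GC correction the change was -0.71 with adjusted p = 0.0437, while edgeR (0.0647) and DESeq2 (0.0562) did not call it. G6pdx lies on the X chromosome (ENSMUSG00000031400, 74409483 to 74429194, minus strand), where the median change of 554 genes tested was 0.46, with 15 called higher and 3 lower, and where the median was 0.22 without SG replicate 1. Of the exons of G6pdx 13.6% overlap Ikbkg on the other strand. Its coding sequence is identical at 94.8% of aligned bases to the retrogene G6pd2, which had 45.6 or less in every library.

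Pgd, 6-phosphogluconate dehydrogenase, makes the second NADPH and releases carbon dioxide. It was at 2206 and 2116 in dSG, against 4008 and 2946 in SG. Both dSG libraries were below both SG libraries, and SG replicate 1 was the high one. The log2 fold change was -0.67 (SE 0.22, 95% confidence interval -1.26 to -0.07, adjusted p = 0.158), and it was -0.45 without SG replicate 1. Pgd lies on chromosome 4 (ENSMUSG00000028961, 149149991 to 149166771, minus strand) and was second in level per kilobase, at 593 ± 17.4 in dSG and 954 ± 206 in SG (SD, n = 2 each).

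H6pd encodes the enzyme of the endoplasmic reticulum that carries out the first 2 steps of the branch and supplies NADPH inside that compartment. It was at 231 and 264 in dSG, against 665 and 357 in SG. The groups did not overlap, but the SG libraries differed by 0.89 on the log2 scale. The log2 fold change was -0.97 (SE 0.36, 95% confidence interval -1.92 to -0.01, adjusted p = 0.183), and without SG replicate 1 it was -0.52. H6pd had the lowest level per kilobase of the 10 members in dSG, at 52.2 ± 4.88, and lies on chromosome 4 (ENSMUSG00000028980, 149979475 to 150009023, minus strand), as Pgd does.

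Pgls hydrolyses 6-phosphogluconolactone between the steps of G6pdx and Pgd. Its values were 664 and 631 in dSG, against 1382 and 452 in SG. The SG libraries lay on either side of the dSG libraries and differed by 1.60 on the log2 scale, the widest gap between replicates among the members. The log2 fold change of -0.29 (SE 0.56, 95% confidence interval -1.79 to 1.21, adjusted p = 0.748) became 0.51 with SG replicate 1 left out, and the GC correction turned it to 0.25, so its direction was not resolved. Fam129c overlaps 20.6% of the exons of Pgls on the same strand (ENSMUSG00000031807, chromosome 8, 71592176 to 71601092, plus strand).

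**Figure D2:**
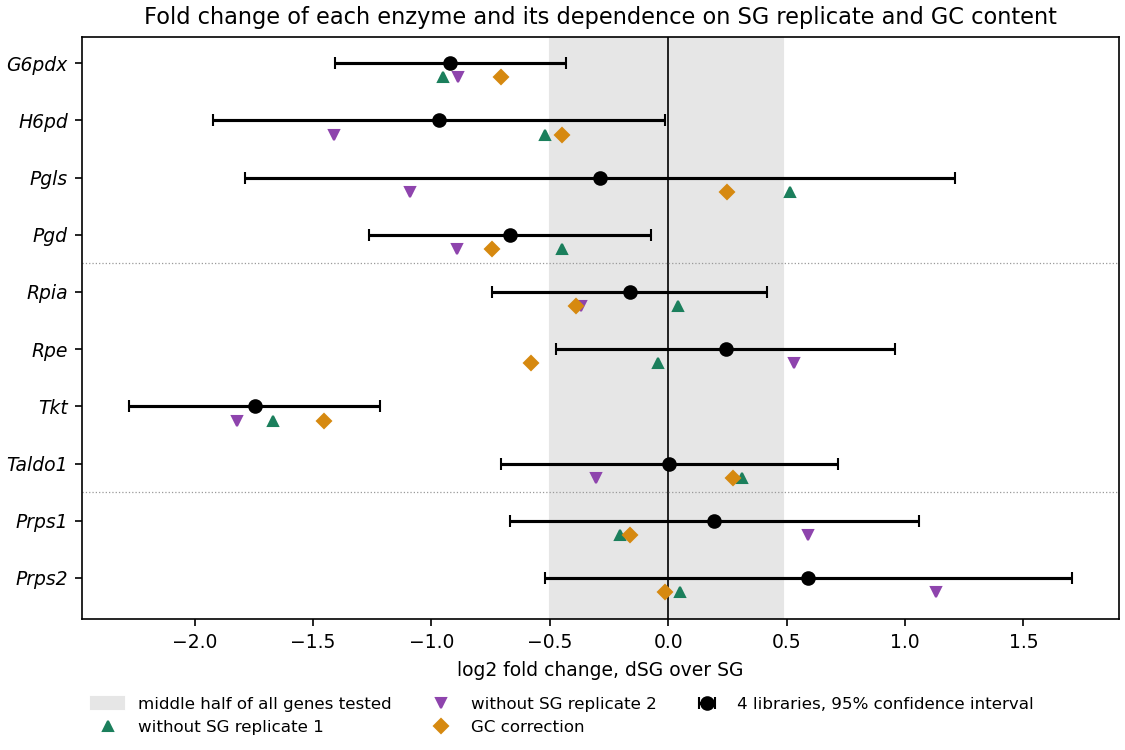
Log2 fold change of dSG over SG for each member (black, with 95% confidence interval, 4 libraries), and below each the value against SG replicate 2 alone (green), against SG replicate 1 alone (purple) and from GC-corrected values (orange), over the interquartile range of all 14108 genes tested in grey (-0.50 to 0.49). The 4 values of Tkt lie within -1.82 to -1.45 and those of G6pdx within -0.95 to -0.71, whereas Pgls runs from -1.09 against SG replicate 1 alone to 0.51 against SG replicate 2 alone.

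The PRPP synthetases Prps1 and Prps2 catalyse the same reaction and differ in their regulation by nucleotides. Prps1 was at 462 and 485 in dSG, against 313 and 546 in SG. Prps2 was at 240 and 270 in dSG, against 114 and 246 in SG. For Prps1 the dSG libraries lay between the SG libraries, and for Prps2 dSG replicate 1 was lower than SG replicate 2. The log2 change was 0.19 for Prps1 (SE 0.32, 95% confidence interval -0.67 to 1.06, adjusted p = 0.705) and 0.59 for Prps2 (SE 0.42, 95% confidence interval -0.52 to 1.70, adjusted p = 0.392). In both, SG replicate 1 was the low library, with only 96 reads for Prps1 and 35 for Prps2, and both genes have a GC content (45.0% and 42.0%) under the median of 49.9%. Leaving out SG replicate 1 gave changes of -0.20 for Prps1 and 0.05 for Prps2, so a higher level of either in dSG was not shown. Prps1 (ENSMUSG00000031432, 140456613 to 140476140, plus strand) and Prps2 (ENSMUSG00000025742, 167346322 to 167382749, minus strand) both lie on the X chromosome. The median change of 554 X chromosome genes tested was 0.46, and 0.22 without SG replicate 1.

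The ratio of Prps2 to Prps1 within a library was taken after 4 was added to each count, and depends little on the scaling of libraries. It was 0.524 and 0.561 in dSG, against 0.373 and 0.455 in SG. The log2 ratio was 0.40 higher in dSG (exact two-sided permutation test, p = 0.333, the smallest that 2 against 2 libraries can give), and 0.25 higher without SG replicate 1. After the GC correction it was 0.15 higher, again with no overlap between the groups. Prps1 was the more abundant of the pair in all 4 libraries, also per kilobase, at 241 ± 8.27 in dSG and 218 ± 83.7 in SG, where Prps2 had 69.0 ± 5.79 and 48.7 ± 25.2 (SD, n = 2 each).

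The coding sequences of this family are shown because they bear on which of its reads can be assigned. Prps1 and Prps2 were identical at 79.9% of 957 coding bases with no identical run over 20 bases, whereas Prps1 and Prps1l3, a relative on chromosome 12, were identical at 96.9% with a run of 164 bases. The first 90 coding bases follow, with capitals for bases that differ from Prps1 (5 in Prps1l3, 21 in Prps2).
Prps1: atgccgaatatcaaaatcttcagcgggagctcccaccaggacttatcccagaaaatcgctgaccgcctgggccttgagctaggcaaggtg
Prps1l3: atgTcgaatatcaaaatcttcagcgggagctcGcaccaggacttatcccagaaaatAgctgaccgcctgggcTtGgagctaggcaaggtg
Prps2: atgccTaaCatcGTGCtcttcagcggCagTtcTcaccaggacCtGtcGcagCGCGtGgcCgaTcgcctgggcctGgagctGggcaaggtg

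Prps1l3 was at 792 and 914 in dSG, against 528 and 790 in SG, with a log2 fold change of 0.40 (adjusted p = 0.379). It took 60.6% and 62.4% of the summed level per kilobase of Prps1, Prps2 and Prps1l3 in dSG, against 61.8% and 57.2% in SG. Reads can pass between Prps1 and Prps1l3 in the counting, since 8.35% of the longest Prps1 transcript is shared exactly with Prps1l3, and the share of each is uncertain for that reason. Prps1l1, a relative expressed in testis in humans, had at most 3.13 in any library.

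The transketolase family was compared on the same per-kilobase scale, a comparison chosen after the values had been seen. Tkt was at 89.1 and 78.8 per kilobase in dSG, against 299 and 270 in SG. Tktl1, a transketolase-like gene of the X chromosome, was at 543 and 623 in dSG, against 323 and 548 in SG, and Tktl2, the relative on chromosome 8, was at 122 and 116 in dSG, against 79.0 and 112 in SG. The summed level of the 3 genes was 753 and 818 in dSG, against 701 and 929 in SG, so the dSG sums lay within the SG range although Tkt did not. The share of Tkt in that sum was 11.8% and 9.64% in dSG, against 42.7% and 29.0% in SG. With the length of all exons joined, in place of the longest transcript, the share of Tkt was 5.57% and 4.48% in dSG, against 24.7% and 15.2% in SG, and that of Tktl1 was 77.3% and 80.7% in dSG, against 60.7% and 70.6% in SG. The level of a share thus depends on the length used, while the groups did not overlap with either. With 4 added to each normalized count, the ratio of Tktl1 to Tkt was 4.62 and 5.98 in dSG, against 0.828 and 1.56 in SG. The log2 difference was 2.21 (exact two-sided permutation test, p = 0.333, the smallest possible). It was 1.76 without SG replicate 1, and GC-corrected values gave 1.52. By themselves Tktl1 (log2 fold change 0.47, adjusted p = 0.373) and Tktl2 (0.34, adjusted p = 0.404) did not pass the test. The change of Tktl1 was close to the median of 0.46 over 554 X chromosome genes tested, which was 0.22 without SG replicate 1.

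**Figure D3:**
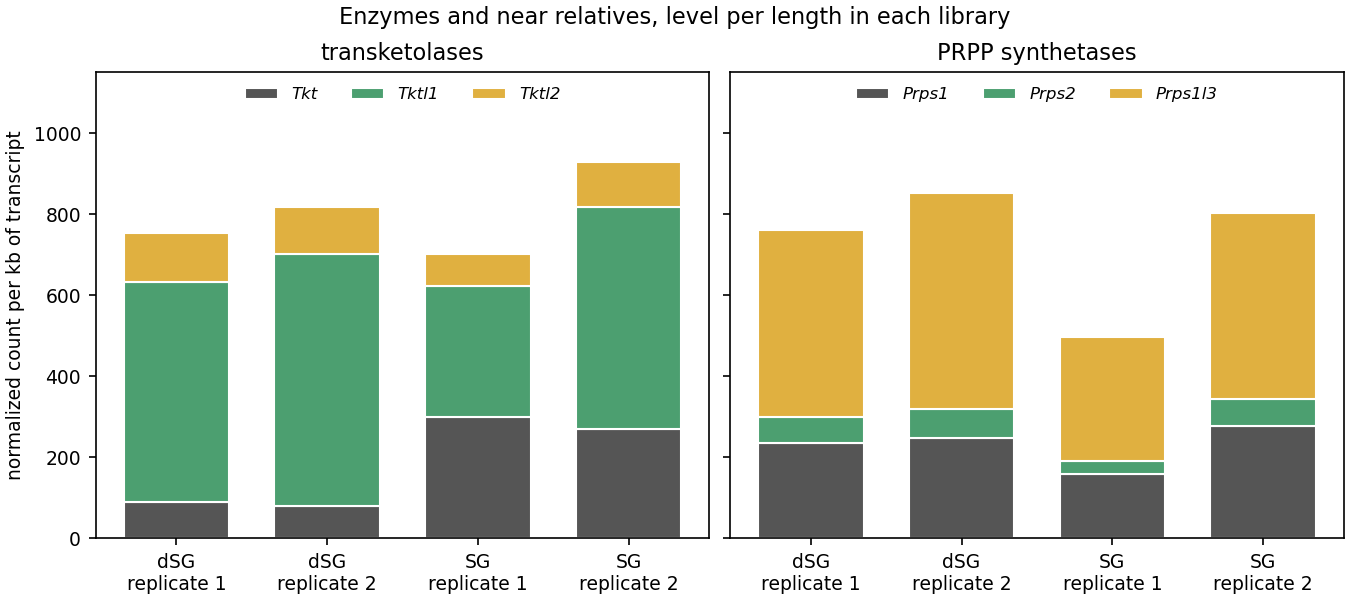
Normalized count per kilobase of the longest transcript, stacked by gene, for the transketolases (left panel) and the PRPP synthetases (right panel) in dSG replicates 1 and 2 and SG replicates 1 and 2. The Tkt segment is 89.1 and 78.8 in dSG and 299 and 270 in SG under sums of 701 to 929, while in the right panel Prps1l3 takes the largest segment of every bar.

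Ordered by level per kilobase, Taldo1, Pgd and Rpia were the first 3 members in both groups. In dSG the order went on with Rpe (255), Prps1 (241), Pgls (241), G6pdx (156), Tkt (84.0), Prps2 (69.0) and H6pd (52.2), and in SG with Pgls (341), G6pdx (297), Tkt (285), Rpe (219), Prps1 (218), H6pd (108) and Prps2 (48.7). In dSG, Rpe, Prps1 and Pgls differed by less than the SD of Rpe, which was 22.1. Neighbours from Pgls to Prps1 in the SG order differed by less than the spread of Pgls, whose SD was 244. With the union of all annotated exons as length, Tkt took place 10 rather than 8 in dSG, with 7355 annotated exon bases against 3223 in its longest transcript.

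Branches were compared within libraries by the sum of G6pdx, Pgls and Pgd over the sum of Rpia, Rpe, Tkt and Taldo1. This ratio was 0.760 and 0.762 in dSG, against 1.11 and 0.947 in SG. Both dSG ratios were below both SG ratios, by -0.43 on the log2 scale (exact two-sided permutation test, p = 0.333, the smallest possible). After the GC correction the difference was -0.30. Pgd makes up most of the upper sum. With the mean of the genes' log2 values in place of the sums, the log2 ratio was -0.00993 and 0.00409 in dSG, against 0.46 and -0.0479 in SG, a difference of -0.21 (exact permutation test, p = 1). The groups then overlapped, and only SG replicate 1 lay above dSG. The median change was -0.79 for the oxidative branch with H6pd, -0.08 for the non-oxidative branch and 0.39 for PRPP synthesis, and without SG replicate 1 these medians were -0.48, 0.00 and -0.08, beside 0.05 over all genes. After the GC correction they were -0.58, -0.48 and -0.09, beside -0.01 over all genes, so the distance between the branches depends on that choice.

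The difference between the SG replicates is given beside the GC content of each member as a description, with no test over the 10 members. Members poor in GC, Rpe, Prps2 and Prps1, had lower values in SG replicate 1 than in SG replicate 2, by 0.58, 1.08 and 0.79 on the log2 scale. Pgls and H6pd, at 57.4% and 57.2% GC, had higher values in SG replicate 1, by 1.60 and 0.89. G6pdx and Tkt, at 52.6% and 54.0%, differed by only 0.07 and 0.15. Taldo1, at 53.6% GC, was higher in SG replicate 1 by 0.62, Pgd, at 48.5%, by 0.44 and Rpia, at 46.5%, by 0.41. Against the interquartile range of all genes in bins of GC content, 4 members lay within the range of their bin, 5 above it (Pgd, Rpia, Rpe, Pgls and H6pd) and 1 below it (G6pdx). After the GC correction the median of the 10 members was -0.42, against -0.01 over all genes, Tkt stood at -1.45 (adjusted p = 0.00646), and Pgd at -0.75 (adjusted p = 0.0508). The part of GC content in these differences between groups was not tested beyond this correction.

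**Figure D4:**
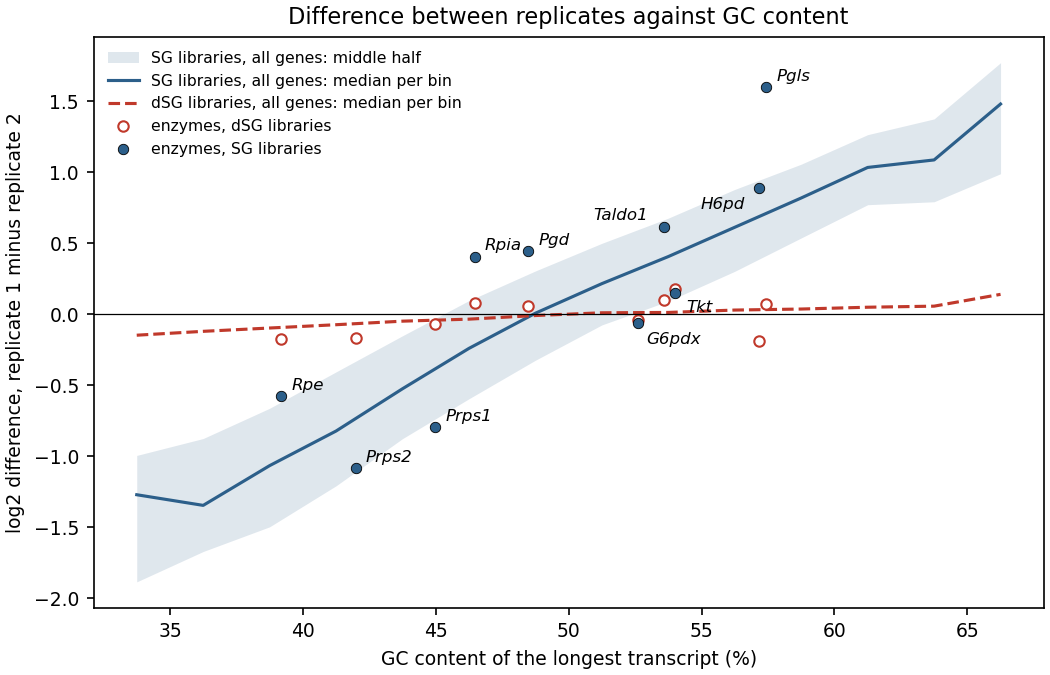
Log2 difference between replicates 1 and 2 against the GC content (%) of the longest transcript, for the members in dSG (open red) and SG (filled blue), with the median over all genes tested in bins of GC (dashed red for dSG, solid blue with the interquartile range for SG). The members' SG points run from -1.08 for Prps2 to 1.60 for Pgls and 4 of the 10 lie within the blue range, while the dSG points stay near 0.

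Related pathway genes were read from a list of 13, of which 11 were tested and 0 were called in either direction, against 6.07% of all genes. Unadjusted p-values under 0.05 were found for 2 higher genes (10.5% of all genes) and 3 lower ones (16.3%), and the median of the list was 0.13. Prpsap1, a regulatory protein that binds PRPP synthetases, had the smallest p, with 1594 and 1475 in dSG against 4947 and 3324 in SG (log2 fold change -1.40, adjusted p = 0.0565). Gpi1, which links glucose 6-phosphate to glycolysis, was at 2329 and 2557 in dSG against 4771 and 4038 in SG (-0.85, adjusted p = 0.0792). Tigar, whose product lowers fructose 2,6-bisphosphate and so favours the pentose phosphate pathway, was at 436 and 459 in dSG against 987 and 729 in SG (-0.92, adjusted p = 0.0989). Shpk, the kinase that makes sedoheptulose 7-phosphate, a substrate of transaldolase, went the other way. It was at 85.6 and 72.0 in dSG against 9.78 and 20.8 in SG (2.16, adjusted p = 0.0567), with only 3 reads in SG replicate 1. None of these 4 genes passed. Their groups did not overlap, but they were named for the smallest p of the list, which favours such genes. Of all genes tested, 32.7% had both dSG libraries below both SG libraries and 33.2% above. DESeq2 called 1 gene of this list higher, as it did 3.32% of all genes, and 1 lower (10.4% of all genes), and edgeR 1 lower (6.00%).

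The users of PRPP and the steps of nucleotide synthesis formed a list of 21, of which 19 were tested and 0 called by limma or edgeR, while DESeq2 called 2 lower, as it did 10.4% of all genes. Both dSG libraries lay below both SG libraries for 11 of the 19, where they did for 32.7% of all genes, and 5 were lower at an unadjusted p under 0.05, as were 16.3% of all genes. The median was -0.42, and -0.31 without SG replicate 1. Umps, which completes UMP from PRPP and orotate, was at 881 and 914 in dSG against 2542 and 1674 in SG (log2 fold change -1.20, adjusted p = 0.0773). The log2 fold change of Ctps, which makes CTP, was -0.74 (adjusted p = 0.0983), Impdh2, the rate-limiting step to guanine nucleotides, was at -0.83 (adjusted p = 0.121), and Pfas, of purine synthesis, was at -0.94 (adjusted p = 0.135), none of which passed.

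Other sources of NADPH and enzymes next to them formed a list of 13 with 11 tested. It had 0 calls by limma or edgeR and a median of -0.02. Unadjusted p-values under 0.05 were found for 2 higher genes, Mthfd1l and Nnt (10.5% of all genes), and 3 lower ones (16.3%). DESeq2 called 1 higher (3.32% of all genes) and 2 lower (10.4%). The cytosolic folate enzyme Mthfd1 was at 1008 and 953 in dSG against 1818 and 1870 in SG (log2 fold change -0.91, adjusted p = 0.0610), and the mitochondrial Mthfd2 at 712 and 718 in dSG against 1352 and 1411 in SG (-0.95, adjusted p = 0.0574). Mthfd1l works next to Mthfd2 in the mitochondrion but does not itself make NADPH. Its values were on the opposite side, 483 and 496 in dSG against 280 and 208 in SG (1.01, adjusted p = 0.0870). Nnt, the mitochondrial transhydrogenase, was at 50.1 and 47.6 in dSG against 9.78 and 21.4 in SG (1.497, adjusted p = 0.110). It had only 3 reads in SG replicate 1. The named folate genes therefore lay on both sides of 0, with only Mthfd1l above it, and none passed.

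The NRF2 list held 6 genes, all tested, with 0 calls by limma or edgeR, 1 lower call by DESeq2 (10.4% of all genes) and 3 lower at an unadjusted p under 0.05 (16.3% of all genes). Its median was -0.82, and it was -0.55 without SG replicate 1 and -0.42 with the GC correction. Nfe2l2 itself, the gene for NRF2, was at 1878 and 2115 in dSG against 1796 and 2299 in SG (log2 fold change -0.03), and Keap1, its inhibitor, at 562 and 526 in dSG against 671 and 432 in SG (0.01). Both had overlapping groups. The partners and competitors of NRF2 at its element lay lower in dSG without passing, namely Bach1 at -1.04 (adjusted p = 0.0784), Mafk at -0.86 (adjusted p = 0.0928), Maff at -1.30 (adjusted p = 0.179) and Mafg at -0.79 (adjusted p = 0.197).

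**Figure D5:**
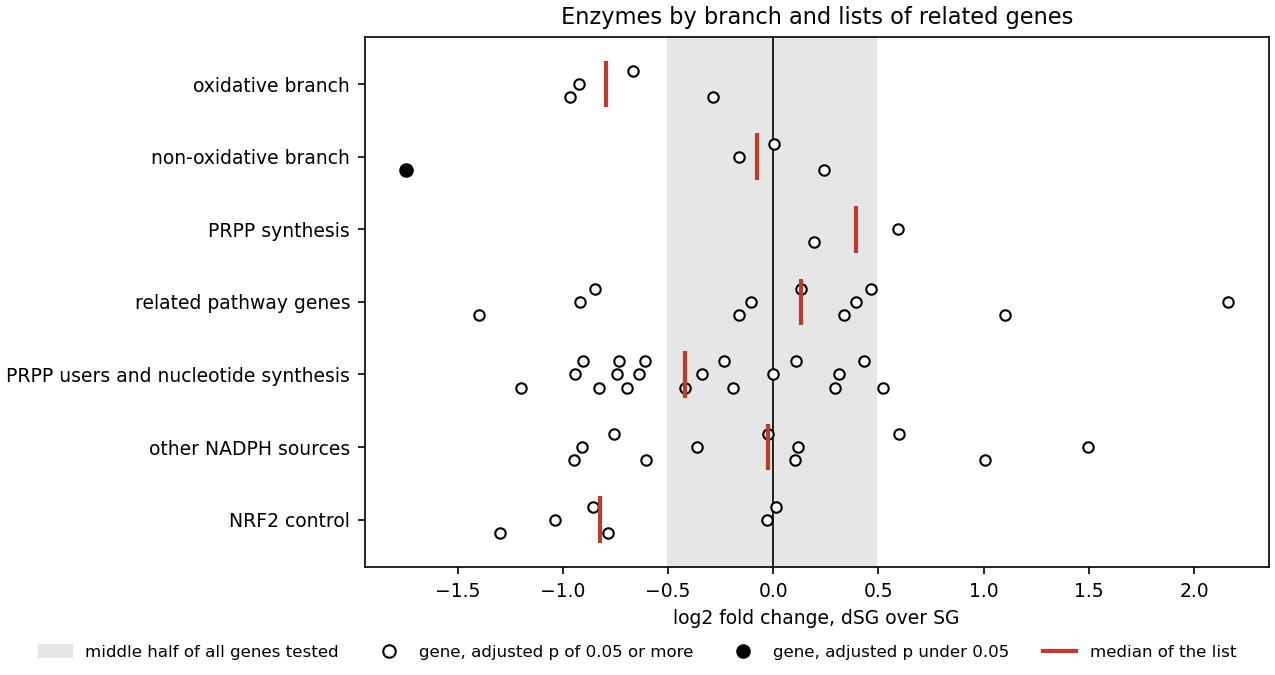
Log2 fold change of dSG over SG for every tested gene of the 3 branches and the 4 related lists (filled where the limma adjusted p was under 0.05, open otherwise), with the median of each list in red and the interquartile range of all genes tested in grey. Tkt, at -1.75, is the one filled point, and the medians run from -0.82 for the NRF2 list to 0.39 for PRPP synthesis.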

How the data were processed

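RNA-seq of 2 dSG and 2 SG libraries was used. The authors prepared directional libraries, mapped paired-end reads with Subread on the GRCm38 build, and took gene counts from featureCounts 1.5.3 (submitters' processing notes, where DESeq2 is also named). For annotation, strand setting and multiply mapping reads, the settings are not stated in the sources read. The signal deposited by the authors is the gene's read count over a library size factor, here called the normalized count. Its steps gave whole reads for 100% of values (tolerance 0.01), and total reads were 7484560 to 26953654 per library. The labels give an RA dose of 100 µM and the methods 100 nM. The authors' own fold changes and p-values, also in the table, were not used. The planned alignment of proteins was replaced by one of coding sequences.

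Limma-trend (limma 3.58.1, R 4.3.3) was run on log2(normalized count + 4) of genes with at least 20 in at least 2 libraries, with Benjamini-Hochberg adjustment over all 14108 genes, on condition only, two-sided. Transcript length, GC content, overlaps and coding sequences came from GENCODE M21, to which 19975 of 19991 genes (99.9%) were matched. The GC correction was a loess (span 0.3) of log2 values on GC in each library. Alternatives were other scalings, filters and pseudocounts (0.4, 40), no trend, array weights, edgeR 4.0.16 and DESeq2 1.42.0 on the recovered reads, GC correction, a replicate block and each library left out. The fits other than those with GC correction were run on simulated counts with the same dispersion in every library. The simulation held no spread linked to GC content and no wider spread in SG, so it does not cover those features of these data. Ratios within libraries, with 4 added to each count or sum, were compared by exact permutation. Alignments used Biopython 1.88. Named genes were all 10 members, up to 4 genes per related list and the leading genes per marker list with the smallest limma p, and Kit, Stra8 and Gfra1, with relatives of members that the comparisons turned on. The members and lists were chosen with earlier results of these data known.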

Additional observations from a re-analysis of the deposited data

How the results depend on the processing

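With 2 libraries a group and a shallow SG replicate 1, the limits are wide. When a dSG library was dropped, the spread came from the wider SG pair only, so a call lost there says little about that gene's dSG values. When an SG library was dropped, the spread came from the close dSG pair only, and 59.0% (SG replicate 1 dropped) or 81.1% (SG replicate 2 dropped) of all genes were called, so calls there carry little weight. No label pairs the libraries by replicate number, and with 2 pairs a correlation of the replicate differences of 0.23 across genes does not settle whether they are paired, so the fit without the block was kept.

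Genes called at 2-fold were 856, against 320 with a filter of 40 in every library, 1862 with DESeq2, 1705 with the GC correction, 2680 with the replicate block and 2120 with block and GC correction, and 458 to 4752 when a library was left out. Members called were 1, against 2 with the GC correction, 3 with the replicate block (20.8% of all genes), 4 with block and GC correction (32.3%), and 0 to 10 when a library was left out. In the 4 related lists 11, 19, 11 and 6 genes were tested, and 0 were called (6.07% of all genes). The count was 1 each with TMM, pseudocount 40, no trend and edgeR (5.75% to 7.40%), and 2 with quantile normalization (6.75%). It was 4 with array weights (9.08% of all genes), 8 with DESeq2 (13.7%) and 17 with GC correction (21.4%). With the block it was 13 (20.8%), and with block and GC correction 20 (32.3%). It ran from 0 to 42 when a library was left out. Whether the lists exceeded these shares of all genes was not tested.

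The replicate block made calls of G6pdx (-0.92, adjusted p = 0.0491) and H6pd (-0.97, adjusted p = 0.0457). The GC correction called G6pdx (-0.71), reversed Pgls (0.25), Rpe (-0.58), Prps1 (-0.16) and Prps2 (-0.0148), and with the replicate block gave the same values, with calls also of Pgd (-0.75) and Rpe. Leaving out a library gave log2 fold changes of -1.83 to -1.66 (Tkt), -0.95 to -0.89 (G6pdx), -1.41 to -0.52 (H6pd), -1.09 to 0.51 (Pgls), -0.89 to -0.45 (Pgd), -0.37 to 0.0401 (Rpia), -0.0448 to 0.53 (Rpe), -0.30 to 0.31 (Taldo1, -0.0469 without dSG replicate 1), -0.20 to 0.59 (Prps1) and 0.0497 to 1.13 (Prps2). No ratio within libraries changed direction in the alternatives run. The branch ratio from means of log2 values was not run with a library left out, and its groups overlapped with all libraries. For the ratios the GC correction was chosen after seeing the data. So was the joined exon length, which was used only for levels and shares per length. The cause of these shifts was not tested.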
